A study of Caenorhabditis briggsae with 13 samples.

Results

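Embryos of the nematode Caenorhabditis briggsae at about 190 cells were compared with embryos at about 95 cells, the last interval of a time course that began at the 4-cell stage. The 190-cell group had 3 arrays (replicates A, B and C) and the 95-cell group 2 (A and B), 5 of the 13 arrays of the series. Members were chosen by sample title alone. The 190-cell embryos were collected 160 min and the 95-cell embryos 120 min after the 4-cell stage, so the interval was 40 min. Both groups were untreated wild-type embryos of strain AF16, as were the 4-cell, 28-cell and 55-cell embryos (0, 55 and 80 min). Each array measured total RNA of 50 pooled embryos, amplified by in vitro transcription, labelled with the dye Cy3 and hybridised to a one-colour array designed for this species. The labels attribute the missing 95-cell replicate to a poor amplification. The stage tags of 190-cell B and 95-cell A read 4-cell, against their titles.

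C. briggsae is a close relative of C. elegans with a very similar early cell lineage. In C. elegans, gastrulation is under way at these stages: precursors of the gut, the germ line and much of the mesoderm move inside, while the epidermal and neural precursors divide at the surface. RNA loaded by the mother declines in this period, early embryonic transcripts made in brief bursts are lost, and regulators of single tissues come on. The arrays name genes only by WormBase identifier. None of the 19528 identifiers on the array was found in the table used here that pairs C. briggsae genes with symbols (0 matches). Genes are therefore described by the way they behaved and not by function, and the identity of a tissue could not be checked against its markers.

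The whole profiles of the stages were close. Levels below are the log2 ratio of a probe's intensity to the 75th percentile of its array, averaged over the probes of a gene, and they were set against each other only within a gene. Across 13443 tested genes, r between a 190-cell and a 95-cell array was 0.928 to 0.960. Within the stages it was 0.949 to 0.979 among the 190-cell arrays and 0.970 between the 95-cell arrays. These correlations are across genes, which are not independent replicates. The arrays also differed by scan date, with 190-cell A, 190-cell B and 95-cell A scanned on a first date and 190-cell C and 95-cell B on a second. On the first date 56.5%, 54.1% and 47.5% of probes were well above background on 190-cell A, 190-cell B and 95-cell A. On the second date the share was 67.9% on 190-cell C and 64.9% on 95-cell B. Each stage thus held arrays of both dates, and values within each date are given beside the main results.

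A limited set of genes was called as changed over this interval. Of the 13443 genes tested, 991 (7.37%) differed between the stages at a Benjamini-Hochberg adjusted p under 0.05 (limma, all 13 arrays sharing the estimate of the spread), 633 (4.71%) higher and 358 (2.66%) lower at 190 cells. A filter on dim probes let in 493 of the tested genes through the 190-cell arrays alone (155 called higher, 0 lower). It let in 35 through the 95-cell arrays alone (0 called higher, 4 lower). With no filter on dim probes 66.0% of the called genes were higher, beside 63.9% in the main setting. What the filter contributed to the excess of rises was not tested. The median rise among the called genes was 4.13-fold as fitted and the median fall 3.50-fold. The smallest called rise was 1.85-fold and the smallest called fall 1.88-fold. Calls under 2-fold were rare, with 4 of 633 rises and 3 of 358 falls. On simulated data with 200 genes moved, 7.46% of 2-fold and 65.7% of 4-fold changes were recovered. The adjusted threshold depends on the number of genes called, which was 991 in the data, so recovery there can differ. Another 991 genes differed by at least 2-fold and were not called. RNA was extracted from whole embryos, in which fewer cells of a type and less RNA per cell cannot be told apart.

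**Figure D1:**
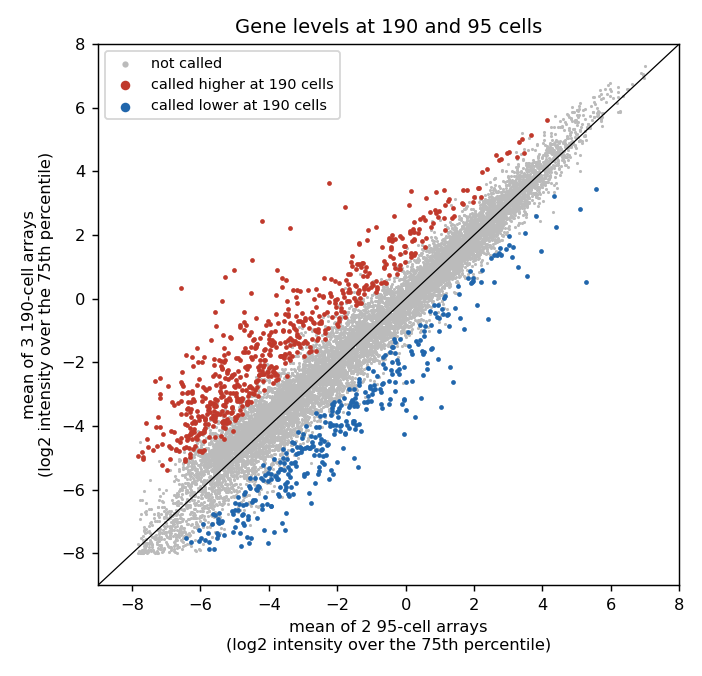
Mean level of each tested gene on the 3 190-cell arrays (vertical axis) against its mean on the 2 95-cell arrays (horizontal axis), both in log2 intensity over the array's 75th percentile, with the line of equal level. The 633 genes called higher at 190 cells lie above the line and the 358 called lower lie below it, and most of the 13443 genes lie close to it.

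Of the rises, 298 were 4-fold to 16-fold and 31 over 16-fold, and of the falls, 139 were 4-fold to 16-fold and 4 over 16-fold. These are fitted values, which take a signal at background as a level. For 39 of the 633 genes that rose, neither 95-cell array had a probe well above background, so only a lower bound can be given. The largest such bound was at least 56.9-fold and the median at least 2.76-fold. Another 235 rises were above background on 1 of the 2 95-cell arrays, and 359 on both. Of the 358 genes that fell, 37 had no probe above background on any 190-cell array. A bound over 1 could be given for 28 of these, and it was at least 2.07-fold in the median and at least 7.35-fold for the largest. With these genes at their bounds, 25 rises and 4 falls exceeded 16-fold. The 235 rises above background on 1 of the 2 95-cell arrays kept their fitted values in that count. Among genes detected on every array of the dimmer stage, 9 rises and 4 falls exceeded 16-fold.

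WBGene00025585 had the largest rise of the 594 that qualified to be named by the rule given in the methods. Over its 5 probes the level was 1.87, 2.19 and 3.27 on 190-cell A, B and C, against -3.81 and -4.60 on 95-cell A and B. Every 190-cell array was above both 95-cell arrays, which 19.4% of all tested genes also showed (34.3% did not overlap in either direction). The mean was 2.44 ± 0.73 (SD, n = 3) at 190 cells and -4.21 ± 0.56 (SD, n = 2) at 95 cells, a difference of 6.65 (SE 0.49, limma adjusted p = 1.51e-05). The fitted rise of 100.3-fold includes 2 of the 5 probes on 95-cell A that were not above background. With a floor common to all arrays the difference was 5.71, and with normexp and quantile normalization, without 28-cell C, it was 4.80.

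The probes of WBGene00025585 moved alike, with changes of 6.29 to 7.05. Its deposited intensities ran from 382.7 to 10703 on the 190-cell arrays and from 5.24 to 126.7 on the 95-cell arrays. All 5 probes were above background on 95-cell B and 3 of 5 on 95-cell A, and none was on any 4-cell or 55-cell array or on 28-cell A and B. The 4-cell mean was -5.79 ± 0.21 (SD, n = 2), the 28-cell mean -6.67 ± 0.60 (n = 3) and the 55-cell mean -6.77 ± 0.58 (n = 3). The 95-cell level was already at least 2.32-fold above that at 55 cells (fitted difference 2.56, SE 0.49, limma adjusted p = 0.0027). A bound of this kind sets any level under the lowest signal well above background on its array to that signal. Its probes were thus first above background at 95 cells, and they were far brighter 40 min later.

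WBGene00027604 had the next largest rise and a different course. Its level over 2 probes was 0.65, -0.19 and 1.54 on 190-cell A, B and C, against -5.26 and -5.31 on 95-cell A and B. The difference was 5.96 (SE 0.47, limma adjusted p = 2.38e-05). Neither probe was above background on 95-cell A and both were on 95-cell B, so the fitted 62.1-fold rise sets a level near background as its base. The change was 4.21 with the common floor and 3.40 with normexp and quantile normalization, without 28-cell C.

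The rise of WBGene00027604 followed an earlier episode. The 4-cell mean was -5.69 ± 0.36 (SD, n = 2), with no probe above background. The 28-cell mean was -0.72 ± 0.27 (n = 3), with both probes above background on 28-cell A and B. A 55-cell mean of -3.30 ± 0.61 (n = 3) and a 95-cell mean of -5.29 ± 0.035 (n = 2) followed. The 28-cell level was at least 7.59-fold above the 4-cell level (fitted difference 4.97, SE 0.47, limma adjusted p = 1.50e-06) and the 55-cell minus 28-cell change was -2.58 (SE 0.42, adjusted p = 6.0e-04). The 95-cell level was lower again by a change of -1.99 (SE 0.47, adjusted p = 0.0095). The signal was therefore clear at 28 cells, near background at 95 cells and clear again at 190 cells. The deposited intensities were 181.7 to 2734 on the 190-cell arrays and 7.43 to 25.3 on the 95-cell arrays.

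WBGene00030765 had the largest fall of the 321 that qualified. Its level over 5 probes was 0.47, -0.31 and 1.39 on 190-cell A, B and C, against 5.37 and 5.18 on 95-cell A and B. All 3 190-cell arrays were below both 95-cell arrays, as in 14.9% of all tested genes, and every probe was above background on all 5. The mean was 0.52 ± 0.85 (SD, n = 3) at 190 cells and 5.27 ± 0.13 (SD, n = 2) at 95 cells. The change was -4.76 (SE 0.47, limma adjusted p = 1.14e-04), and single probes gave -4.48 to -5.17.

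The deposited intensities of WBGene00030765 were 110.6 to 2120 on the 190-cell arrays and 10498 to 37841 on the 95-cell arrays, with no saturated spot. The earlier means were a 4-cell level of -4.75 ± 0.12 (SD, n = 2), a 28-cell level of -2.22 ± 0.27 (n = 3) and a 55-cell level of 4.20 ± 0.70 (n = 3). Of its probes 1 of 5 was above background on each 4-cell array, so the fitted rise of 2.53 between 4 and 28 cells (SE 0.47, limma adjusted p = 4.8e-04) rests mostly on levels at background there. It rose by 6.42 between 28 and 55 cells (SE 0.42, adjusted p = 6.46e-07). The 95-cell minus 55-cell difference was 1.08 (SE 0.47, adjusted p = 0.14). The gene was thus high on the 55-cell and 95-cell arrays and lower before and after.

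WBGene00027112, with the next largest fall, rested on a single kept probe. Its level was -3.52, -1.96 and -4.73 on 190-cell A, B and C, against 1.50 and 0.58 on 95-cell A and B. The probe's intensities were 34.7, 85.6 and 20.6 at 190 cells, against 1514 and 715 at 95 cells. The change was -4.44 (SE 0.63, limma adjusted p = 0.0011), a 21.7-fold fall, and the 190-cell arrays spread widely (SD 1.39, n = 3). With its dim probes included the change was -2.35 and missed the threshold (limma adjusted p = 0.063). With normexp and quantile normalization, without 28-cell C, it was -3.16.

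WBGene00027112 stood at -5.93 ± 0.18 (SD, n = 2) at 4 cells and -5.94 ± 0.62 (n = 3) at 28 cells, where its probe was not above background on the arrays with flags. At 55 cells it stood at 1.25 ± 0.23 (n = 3), a rise of at least 59.1-fold over 28 cells (fitted difference 7.18, SE 0.56, limma adjusted p = 2.72e-06). The 95-cell minus 55-cell difference was -0.21 (SE 0.63, adjusted p = 0.86). Both of these genes thus rose between 28 and 55 cells and fell between 95 and 190 cells.

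**Figure D2:**
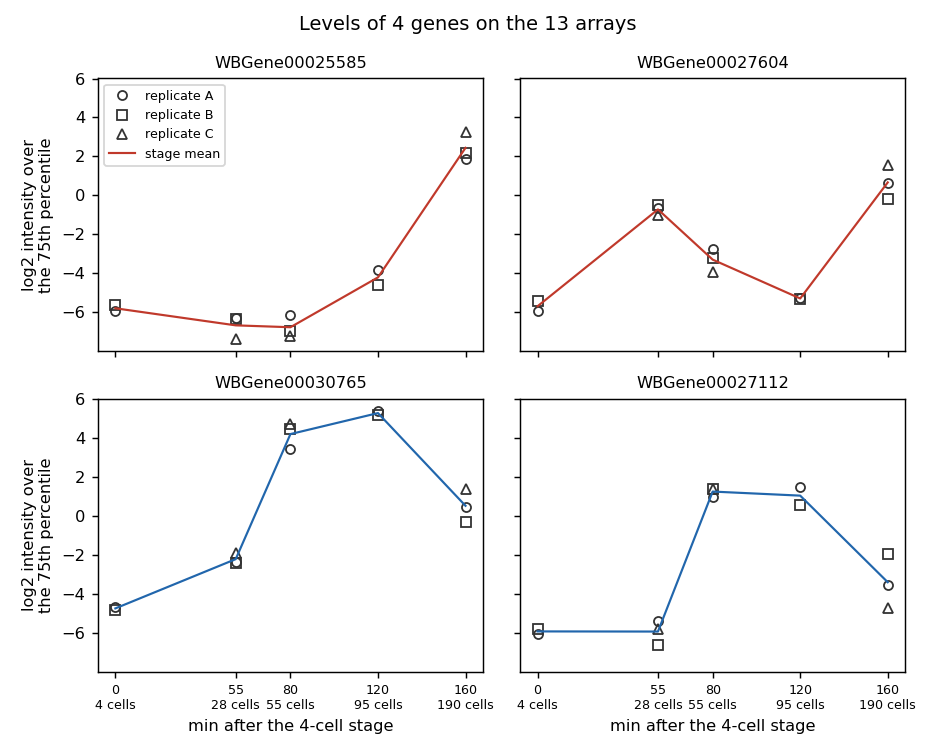
Level of 4 genes (log2 intensity over the array's 75th percentile) on all 13 arrays against min after the 4-cell stage, with a symbol for each replicate letter and a line through the stage means. WBGene00025585 is at background until 55 cells and highest at 190 cells, WBGene00027604 is high at 28 and 190 cells, and WBGene00030765 and WBGene00027112 are highest at 55 and 95 cells and lower at 190 cells.

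The called genes were then followed through the earlier stages. Each gene's level was set against its own 55-cell mean. The 55-cell arrays entered the comparison only through the shared estimate of the spread and the filter on dim probes. The 633 genes that rose had a 4-cell median of 0.37, a 28-cell median of 0.22, a 95-cell median of 0.51 and a 190-cell median of 2.75. Over all tested genes these medians were 0.28, 0.098, -0.19 and -0.13. Single genes varied, with quartiles of -0.87 and 1.23 at 4 cells. The 4-cell value turned with the scaling: with the percentile taken over probes detected on every array, the 4-cell median was -0.95 for the genes that rose and -1.03 for all genes. The later medians of the genes that rose moved less, to 0.11 at 28, 0.52 at 95 and 2.72 at 190 cells.

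The median course of the 358 genes that fell was humped. Relative to their 55-cell mean, the 4-cell median was -2.75, the 28-cell median 0.13, the 95-cell median -1.27 and the 190-cell median -3.16. Their levels were lower at 4 cells, higher at 28 and 55 cells, and already lower at 95 than at 55 cells. With the other scaling the 4-cell median was -4.06 and the 190-cell median -3.19. The change between 95 and 190 cells chose these genes. The arrays of 4, 28 and 55 cells entered through the shared estimate of the spread and the filter on dim probes. That filter let in 9, 4 and 1 of the 358 genes through the 55-cell, 28-cell or 4-cell arrays alone. Such a filter favours a higher level there.

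**Figure D3:**
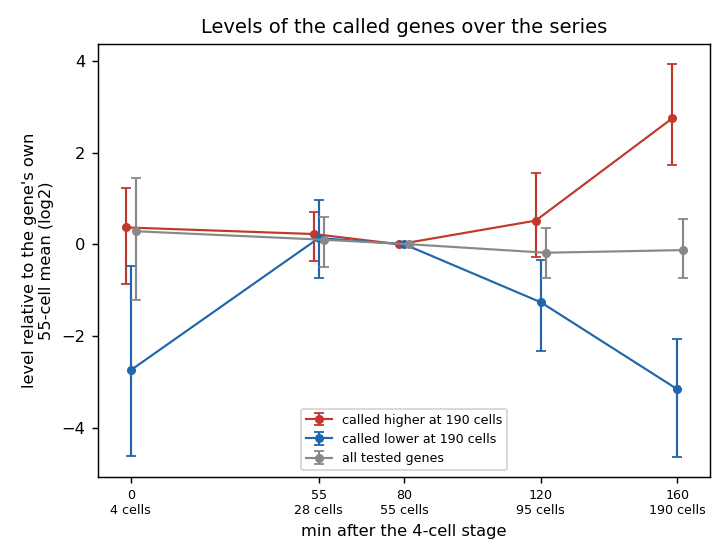
Median level of the genes called higher at 190 cells (633), called lower (358) and of all tested genes (13443), each gene relative to its own 55-cell mean in log2 units, against min after the 4-cell stage; bars span the lower to the upper quartile over genes. The genes that fell begin at a median of -2.75, come near 0 at 28 and 55 cells and end at -3.16, whereas the genes that rose stay within 0.51 of 0 until 95 cells at this scaling (their 4-cell median was -0.95 with scaling on detected probes).

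The earlier comparisons of 28 with 4 cells and of 55 with 28 cells used none of the 190-cell and 95-cell arrays, although the estimate of the spread per gene was shared. Of the 358 genes that fell at the end, 225 (62.8%) had been called higher at 28 than at 4 cells, where 25.1% of all tested genes were, and 62 (17.3%) lower, against 30.7% of all. The median 28-cell minus 4-cell change of the 358 genes was 2.56, against -0.18 over all genes. Relative to that median, 228 were above and 59 below, beside 3636 and 3701 of the 13443 tested genes. With the scaling on detected probes, the median of all genes was 1.02, and 279 (77.9%) of the 358 genes were called higher, beside 6991 of the 13443. Without 28-cell C, whose scanner file was a copy of another array's, the count was 222.

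Between 28 and 55 cells, 77 of these 358 genes (21.5%) rose and 90 (25.1%) fell, where 12.6% and 15.1% of all tested genes did. WBGene00030765 and WBGene00027112 belonged to the 77. Without 28-cell C the counts were 68 and 75, beside 1538 and 2028 of all tested genes.

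The same counts were made for the genes that rose at the end. Of the 633, 142 (22.4%) had been called higher at 28 than at 4 cells and 137 (21.6%) lower, beside 25.1% and 30.7% of all tested genes. With scaling on detected probes these were 306 (48.3%) higher and 36 (5.69%) lower, beside 6991 and 2121 of the 13443, so the balance between directions depended on the scaling. Between 28 and 55 cells, 70 (11.1%) rose and 112 (17.7%) fell, beside 12.6% and 15.1% of all. WBGene00027604 was among the 142 and among the 112.

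Detection was read beside the levels. A gene was taken as detected at a stage when each array of it for which flags were usable had a kept probe of that gene well above background. Of the 633 genes that rose, 226 (35.7%) were detected on the 4-cell, 372 (58.8%) on the 28-cell and 376 (59.4%) on the 55-cell arrays. 155 of them (24.5%) were detected at 190 cells and at no earlier stage. They belong to 493 tested genes that passed the filter on dim probes through the 190-cell arrays alone, and such a filter favours a higher level there, so nothing is read from this share. The same 155 are undetected at the earlier stages by construction, so those shares were not compared with all tested genes. 79 of the 633 genes had no probe above background on any array of 4, 28 or 55 cells, as had 154 tested genes in all, and 197 were above background on every array of these stages.

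Of the 358 genes that fell, 187 (52.2%) were detected on the 4-cell, 327 (91.3%) on the 28-cell and 349 (97.5%) on the 55-cell arrays. The shares of all tested genes were 68.5%, 87.6% and 89.1%. All tested genes include the 493 let in through the 190-cell arrays alone, of which 0 were called lower. These are undetected at the earlier stages by construction, which lowers the shares of all genes there and raises the one at 190 cells. 146 genes (40.8%) had no probe above background at 4 cells and were detected at 55 cells, a pattern seen in 18.2% of all tested genes. 185 (51.7%) were above background on every array of 4, 28 and 55 cells, against 65.8% of all. At 190 cells 257 of the 358 genes (71.8%) were still detected on every array, beside 90.6% of all tested genes. Most of the falls thus did not reach background.

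The stage of the highest mean level was also counted. Of the 358 genes that fell, 65 peaked on the 4-cell, 137 on the 28-cell, 109 on the 55-cell and 47 on the 95-cell arrays. Of all tested genes 41.5% peaked on the 4-cell, 21.9% on the 28-cell, 10.1% on the 55-cell, 7.80% on the 95-cell and 18.7% on the 190-cell arrays. The call itself bars a peak at 190 cells for these 358 genes. In 220 (61.5%) the mean was lowest at 190 cells and in 120 (33.5%) at 4 cells, beside 21.0% and 24.9% of all tested genes. The call itself favours a lowest mean at 190 cells. With scaling on detected probes, 51 peaked on the 4-cell, 130 on the 28-cell, 129 on the 55-cell and 48 on the 95-cell arrays, beside 17.7%, 30.1%, 16.7% and 11.4% of all. The lowest mean was then the 190-cell one in 153 and the 4-cell one in 202. Which end of the series was the lower for these genes thus depended on the scaling, while the peak most often lay at 28 or 55 cells under both.

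Among the 633 genes that rose, 547 (86.4%) peaked on the 190-cell arrays, where 18.7% of all tested genes did and where the call favours a peak. 40 peaked on the 4-cell, 41 on the 28-cell and 5 on the 55-cell ones. The lowest mean was the 4-cell one in 176 (27.8%), the 28-cell one in 134 (21.2%), the 55-cell one in 182 (28.8%) and the 95-cell one in 141 (22.3%). Of all tested genes 24.9%, 20.1%, 10.4% and 23.5% were lowest at these stages. The call bars a lowest mean at 190 cells for the 633 genes. With scaling on detected probes 569 (89.9%) were highest at 190 cells and 433 (68.4%) lowest at 4 cells, beside 24.1% and 56.6% of all. For 58 of the 633 genes the 28-cell mean was above both the 95-cell and the 190-cell mean, by at least 2-fold in 19. WBGene00027604, whose 28-cell mean lay between them, was not among these. The corresponding count was 47 for the 4-cell and 18 for the 55-cell mean, and with scaling on detected probes the counts were 21, 50 and 18 for the 4-cell, 28-cell and 55-cell means.

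Calls of one scan date were then read on the arrays of the other. The arrays of the first date alone (190-cell A and B, with 95-cell A) gave 299 genes higher and 148 lower at 190 cells in a fit that assumed the lone 95-cell array to vary like the other groups. The second date held 190-cell C and 95-cell B, which that fit did not use. The filter on dim probes was nevertheless set on all arrays. It let in 493 tested genes through the 190-cell arrays alone and 35 through the 95-cell arrays alone. Genes let in this way had to be above background on 190-cell C or on 95-cell B, which favours the direction called. Their number among the 299 and the 148 was not counted. Of the 299 genes, 289 (96.7%) were higher on 190-cell C than on 95-cell B, beside 51.9% of all tested genes, and 273 (91.3%) were higher by at least 2-fold, beside 10.3% of all. Their median difference was 2.76 on the second date and 2.46 on the first.

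Of the 148 genes lower on the first date, 141 (95.3%) were lower on 190-cell C than on 95-cell B, beside 48.1% of all tested genes. 124 (83.8%) were lower by at least 2-fold, beside 9.51% of all, with a median of -2.32 on the second date and -2.29 on the first. The medians of both dates were thus close for both sets. The second date allowed no test, with 1 array of each stage.

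**Figure D4:**
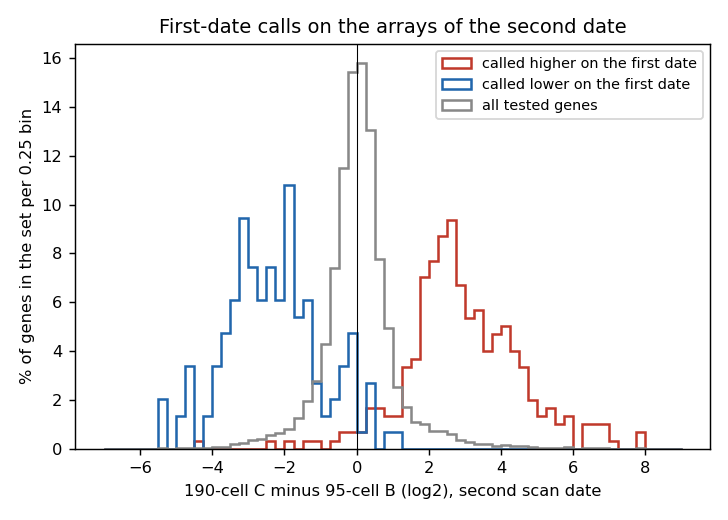
Distribution of the difference 190-cell C minus 95-cell B (log2, second scan date) for the 299 genes called higher and the 148 called lower at 190 cells on the arrays of the first date, and for all 13443 tested genes; the vertical axis is the percent of the genes of each set per bin of 0.25. The 299 genes are centred at 2.76, the 148 genes at -2.32 and all genes at 0.028.

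The rule for named genes asked for 1 sign on both dates. The 190-cell minus 95-cell difference of WBGene00025585 was 5.84 on the first and 7.87 on the second date, and that of WBGene00027604 was 5.50 and 6.85. For WBGene00030765 it was -5.28 and -3.79, and for WBGene00027112 -4.24 and -5.31. A fit that took scan date as a block and left out 28-cell C called 1378 genes, 824 higher and 554 lower.

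Genes seen above background at 1 stage and not at the other were few when all 5 arrays were used. Of 19524 genes with a usable probe, 52 were above background on all 3 190-cell arrays and neither of the 95-cell ones. The opposite held for 16. On the first date they were 1490 and 82, where the lowest signal well above background was 28.1 on 95-cell A, against 10.3 and 10.6 on 190-cell A and B. On the second date, with lowest signals of 4.52 on 190-cell C and 4.44 on 95-cell B, they were 1074 and 365. Genes seen at 190 cells alone outnumbered those seen at 95 cells alone on both dates. Without 95-cell B the counts were 1482 and 43, without 95-cell A 56 and 317, and without 190-cell C 55 and 49. Without 190-cell A they were 98 and 20 and without 190-cell B 134 and 19, so the excess at 190 cells turned round without 95-cell A.

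Different probes of a gene were compared within the arrays. Over all tested genes, 8794 had several kept probes, and in 7062 of them all probes moved in 1 direction. A call made on the mean of the probes favours such agreement. Of the genes that rose, 431 had several kept probes, and all probes moved upwards in each of them. Of the genes that fell, 281 had several, and in 5 a probe moved the other way. In 8540 genes both the A and the B probe were kept. Their log2 changes correlated with r = 0.858 across genes and differed by a median of 0.18. The probes share arrays and RNA, so this shows nothing about replicate error. Tested one by one, both probes called 406 genes, 405 of them in 1 direction. 202 rises and 77 falls rested on a single probe. No called gene had a saturated spot on the 5 arrays.

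For many genes the interval of the change was narrow. For 3485 genes (25.9% of those tested) the 95% confidence interval of the change lay wholly within 2-fold in either direction, and none of these was called. For the others the interval reached 2-fold or beyond in at least 1 direction. The median half-width of the interval over all genes was 0.84 on the log2 scale, or 1.79-fold. 991 genes differed by at least 2-fold without passing the threshold and 32 of these differed by at least 4-fold. A gene that was not called is therefore not shown to be steady. For the 3485 genes the intervals bound the change gene by gene, and they were not adjusted for the number of genes tested.

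The count of changed genes was sensitive to the 95-cell arrays. It was 534 (364 higher, 170 lower) without 95-cell A and 389 (248 and 141) without 95-cell B, and 433 (273 and 160) without the 4 arrays of the series whose stage tag contradicts the title. 286 of the 991 genes, 195 higher and 91 lower, were called in the same direction whichever of the 5 arrays was left out. Across the 17 other settings together 10 genes (5 higher, 5 lower) kept their call, and 148 (108 and 40) across the 14 other than spike-in scaling, no filter on dim probes and only probes above background on all arrays. None of the 991 was called in the opposite direction under any of the 30 settings. Scaling on the spike-in probes, without 28-cell C, called 84 genes. Spike-in signals relative to the 75th percentile were 1.81, 3.67 and 1.02 on 190-cell A, B and C, and 2.79 and 1.27 on 95-cell A and B, on the log2 scale, so the arrays of a stage lay further apart on that scale.

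**Figure D5:**
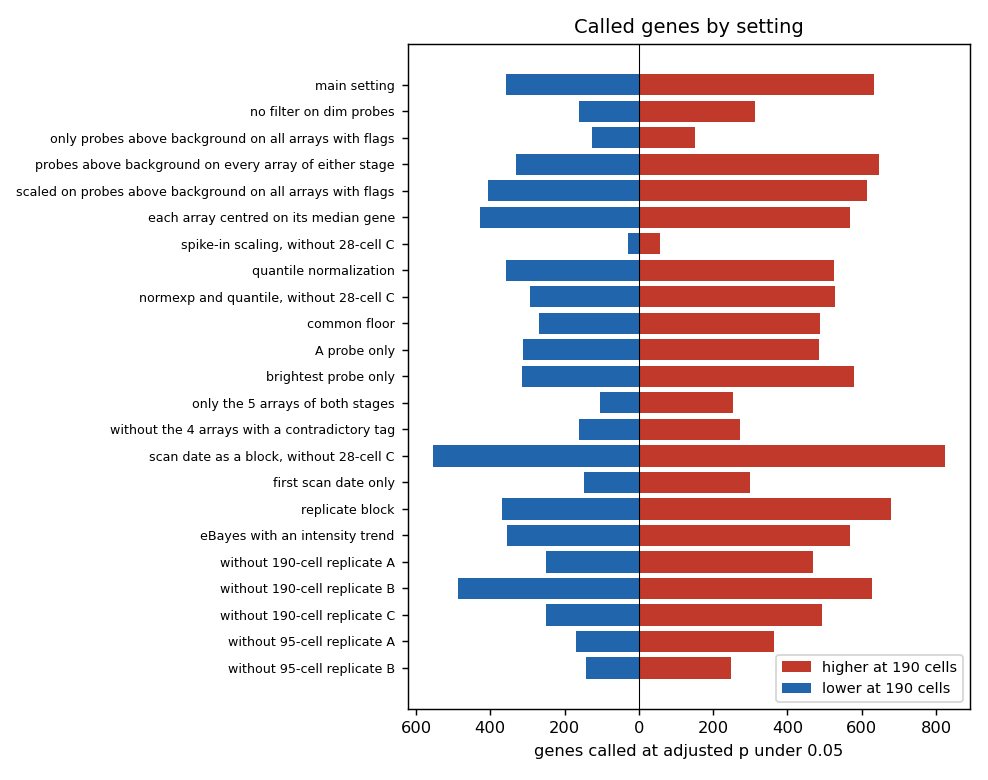
Number of genes called higher (to the right) and lower (to the left) at 190 than at 95 cells, at adjusted p under 0.05, in the main setting, in 17 other settings and with each of the 5 arrays left out. Rises outnumber falls in every row. The filter on dim probes, used in most rows, let in more genes through the 190-cell arrays alone than through the 95-cell arrays alone. The totals run from 84 with spike-in scaling to 1378 with scan date as a block, both without 28-cell C.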

How the data were processed

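The submitters' processing notes name Agilent Feature Extraction, and the file headers give its version as 9.5.3.1. What the authors deposited per spot is the processed intensity, with background and spatial trend already subtracted and no scaling between arrays, per the file headers. Values were read from the deposited series table, which equalled the scanner output on 12 arrays (relative tolerance 1e-06). The scanner file under 28-cell C copied that of 190-cell C, so neither its flags nor its scan date entered for 28-cell C. No column lacked a sample (0 columns). Control spots and 207 probes of 42034 with an outlier flag were left out. A probe was kept if all flagged arrays of at least 1 stage had it well above background (24781 probes), scaled on the 75th percentile of all gene probes and averaged per gene. 4649 genes had 1 probe.

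All 5 stages were fitted with limma 3.58.1 (lmFit, eBayes; two-sided moderated tests) in R 4.3.3, with 8 residual degrees of freedom. Per the labels, replicates were separate biological samples. The genes named are the 2 largest rises and 2 largest falls among called genes with no overlap between stages, the same sign on both scan dates and a probe above background on at least 1 array of each stage. The rule's further genes were not named, because no table names them. The number of arrays limits the precision. On simulated data for 190-cell vs 95-cell, with 13443 genes and 200 moved, limma recovered 7.46% of 2-fold, 65.7% of 4-fold and 83.3% of 8-fold changes and made 3 false calls. The comparison, rules and alternatives were chosen with earlier results of these data known. Gene lists by symbol were planned and not used, because no identifier could be matched. Each of the 12 scanner files came from its own slide, so slide could not be a block.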

Additional observations from a re-analysis of the deposited data

How the results depend on the processing

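Each count was recomputed under 17 other settings and with each of 13 arrays left out, and rises outnumbered falls in each of these, except that with only probes above background on all arrays 137 were above and 148 below the median gene. Counts are given as changed genes, with those higher, those lower and those changed relative to the median gene (991, 633, 358 and 979 in the main setting). They were 476, 314, 162 and 481 with no filter on dim probes, where 19524 genes were tested, and 276, 150, 126 and 285 with only probes above background on all arrays, where 8477 were. They were 84, 56, 28 and 105 with spike-in scaling and without 28-cell C, 359, 254, 105 and 331 with only the 5 arrays of both stages, which leaves fewer arrays for the spread, 433, 273, 160 and 414 without the 4 arrays with a contradictory tag, and 447, 299, 148 and 445 on the first scan date. Blocking on scan date and leaving out 28-cell C gave 554 falls, where leaving out 28-cell C alone gave 377. Leaving out an array gave 389 to 1115 changed genes, 248 to 670 higher, 141 to 488 lower and 390 to 1111 relative to the median. The median change of all genes was 0.080 in the main setting and 0.21 without 95-cell A, which called 505 relative to it. Genes above background at 190 cells alone numbered 1490 on the first scan date, 1074 on the second and 55 to 1482 with an array left out, and those at 95 cells alone 82, 365 and 19 to 317. The second-date counts, the other settings of the earlier comparisons and the reading of first-date calls on the second date were added after the data were examined. Beyond the values given, the cause of these differences was not tested. WBGene00025585, WBGene00027604 and WBGene00030765 were called under each setting in which they had a kept probe. WBGene00027112 missed the threshold with no filter on dim probes (-2.35) and in no other of its settings. Replicate letters are shared between stages, and the deviations of same-lettered arrays correlated between -0.50 and 0.53. Letter is mixed with scan date, with 190-cell B on the first and 95-cell B on the second. The arrays of a stage with 2 arrays also deviate by equal and opposite amounts. This range therefore cannot show whether the letters pair the arrays. With a replicate block 1049 genes changed, 680 higher and 369 lower.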
